A study of Mus musculus with 5 samples.

Results

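Genes of iron handling, haem handling and tissue-resident macrophage identity were examined for c-Maf antibody peaks. The 9 genes, Hmox1, Slc40a1, Cd163, Slc11a1, Fth1, Folr2, Lyve1, F13a1 and Apoe, were taken by name, as genes reported to depend on c-Maf, out of 21887 protein-coding genes on assembled mouse chromosomes. Every peak inside a gene span or within 50 kb of it was collected from each of 4 peak lists, on the mm10 build. Chromatin came from C57Bl/6 bone marrow macrophages whose source label names in vitro M2 polarization, the alternative state, while the sample titles carry M0, which the labels do not explain. Chromatin immunoprecipitation with sequencing (ChIP-seq) gave 2 libraries with an antibody to c-Maf and 2 with normal rabbit IgG as isotype control, numbered 3 and 4, plus 1 input library of number 4 that enters here only through the authors' peak calls. No genotype, treatment dose or time is given for any group, the cells of all groups share one cell type label, and peak lists hold no expression values against which the macrophage label could be checked. The series' design text names the numbers as biological replicates, but no label says which animals or cultures they came from.

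c-Maf is a basic leucine zipper transcription factor of macrophages that binds Maf recognition elements, a family of DNA sites shared with related factors such as NRF2 and BACH1. Macrophages of the spleen and liver take up old red cells, break down their haem, store the released iron in ferritin and return it to the blood through ferroportin. Macrophages that live in tissues for long periods carry surface receptors such as LYVE1, FOLR2 and CD163, by which they are often recognised.

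Promoter sequences are shown first, for the member with c-Maf antibody peaks just after its start (Slc11a1), the member whose wider neighbourhood held the strongest peaks (Fth1, the listed start nearer to those peaks) and the one member with a match to a searched motif (Folr2, both listed starts). Each is the 250 bases before a start site, 5′ to 3′ on the gene's strand, from RefSeq on GRCm38.p6, the assembly behind mm10. Capitals mark motif matches. Slc11a1 and Fth1 have none and are in lower case throughout.
Slc11a1, chr1:74374953-74375202, plus strand: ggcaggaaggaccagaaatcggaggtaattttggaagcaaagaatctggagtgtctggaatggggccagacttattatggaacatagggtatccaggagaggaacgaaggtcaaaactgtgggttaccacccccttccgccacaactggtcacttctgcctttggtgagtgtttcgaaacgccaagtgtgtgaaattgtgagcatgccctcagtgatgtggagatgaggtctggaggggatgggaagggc
Fth1, chr19:9982396-9982645, plus strand: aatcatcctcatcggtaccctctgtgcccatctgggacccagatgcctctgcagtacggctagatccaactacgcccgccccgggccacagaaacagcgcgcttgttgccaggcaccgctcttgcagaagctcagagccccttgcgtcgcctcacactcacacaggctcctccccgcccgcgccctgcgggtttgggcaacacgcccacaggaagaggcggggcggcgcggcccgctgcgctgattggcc
Folr2, upstream start, chr7:101857191-101857440, minus strand: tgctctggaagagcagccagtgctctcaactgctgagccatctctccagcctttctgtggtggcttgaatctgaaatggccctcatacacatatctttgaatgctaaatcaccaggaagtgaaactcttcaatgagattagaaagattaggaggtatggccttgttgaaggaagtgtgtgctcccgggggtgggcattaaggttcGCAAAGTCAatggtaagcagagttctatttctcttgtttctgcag
Folr2, downstream start, chr7:101845332-101845581, minus strand: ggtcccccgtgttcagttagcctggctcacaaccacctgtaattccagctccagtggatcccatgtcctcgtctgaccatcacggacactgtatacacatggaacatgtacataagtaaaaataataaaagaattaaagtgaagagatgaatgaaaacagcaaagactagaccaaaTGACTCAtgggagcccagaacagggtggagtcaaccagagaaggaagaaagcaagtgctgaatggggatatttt

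The table of promoters held 11 such windows for 6 of the 9 members (Slc11a1, Fth1, Cd163, Folr2, F13a1 and Apoe). Both strands were searched for the Maf recognition element with a TRE core, the one with a CRE core, their half-site (TGCTGAC), the AP-1 site known as TRE (TGACTCA) and the core of the antioxidant response element (TGACNNNGC). The half-site lies within both full elements, and the TRE within the first. No member window held either full element or the half-site. The full element with the TRE core was in 1 of all 32851 windows, the one with the CRE core in 0, and the half-site in 3.81%. Folr2 had the antioxidant response element core starting 45 bases before its upstream start, a motif in 10.2% of all windows. It had the TRE starting 74 bases before its downstream start, a motif in 4.46% of all windows. No peak of any list overlapped a promoter window of these 6 genes. These matches describe letters only.

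Read depth was nearly equal, with 21655683 to 22017759 tags per antibody library after duplicate removal, and the lists held 15568 to 58732 peaks. Most peaks were small. A peak's pileup is the number of overlapping tags at its summit after scaling to the input, and dividing out that scaling gave whole tags within 0.02 for every peak. The median peak held 6 tags in each c-Maf antibody list, 4 in isotype number 3 and 5 in isotype number 4. Median peak length was 63 bp (number 3) and 60 bp (number 4) with the c-Maf antibody, and 53 bp and 56 bp with the isotype. In each list this equalled the fragment length used for the calls. Within 50 kb of the 9 genes lay 26 peaks, of which 15 were c-Maf antibody and 11 isotype peaks. They held 3 to 10 tags, and exact 95% Poisson intervals, which cover counting error only, ran from 2.81 to 14.4 for 7 tags. Of the 26 peaks, 24 had a q-value above 0.05, and the other 2 were the c-Maf antibody pair near Fth1.

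**Figure D1:**
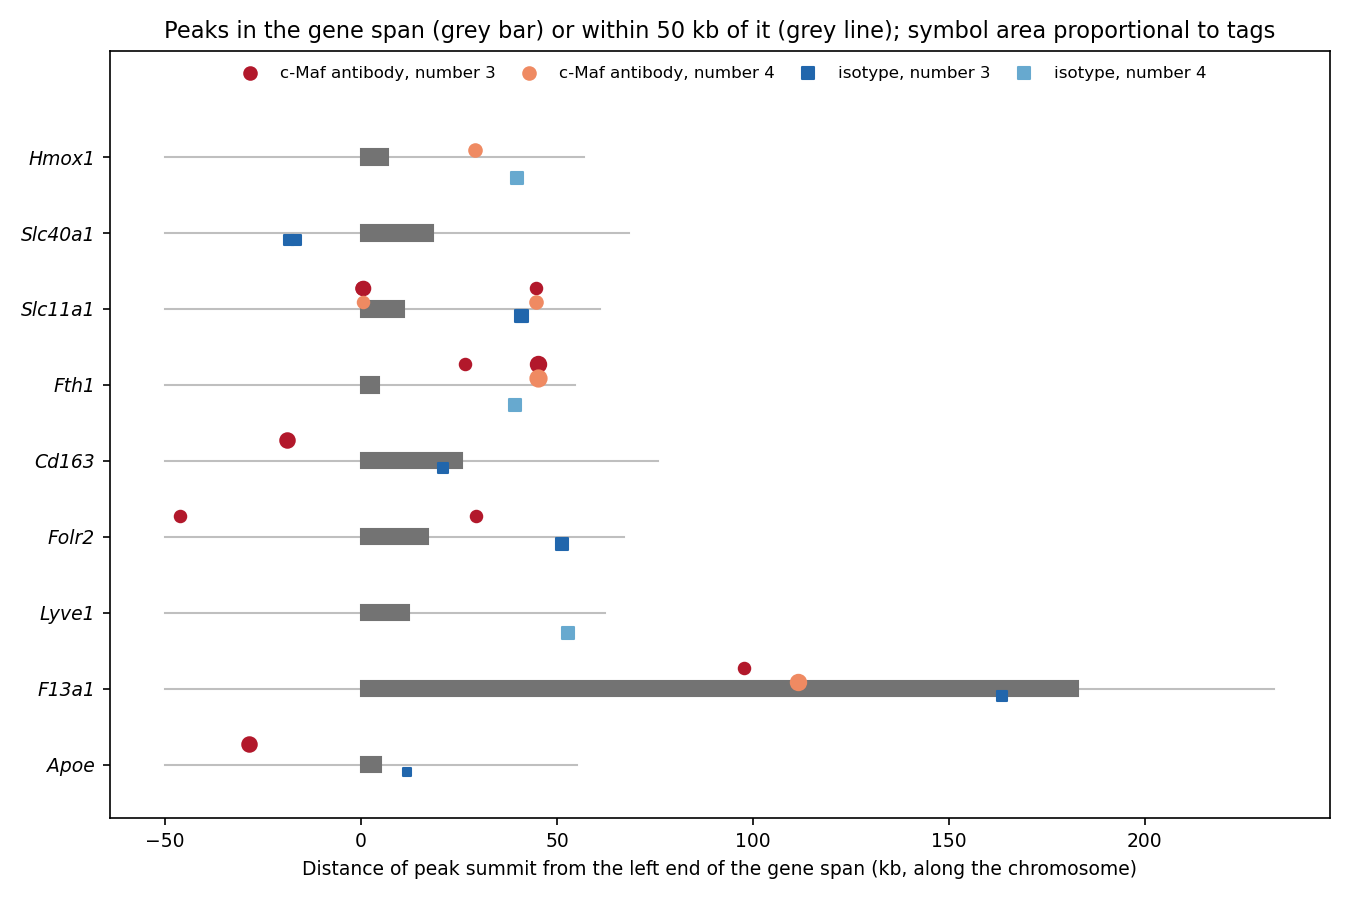
Position of every peak summit near each gene, in kb from the left end of the gene span along the chromosome, for the 4 libraries (circles, c-Maf antibody; squares, isotype), with symbol area proportional to the tags at the summit. Summits of the c-Maf antibody libraries lie close together at the left end of Slc11a1 (23 bp apart), beyond its right end (117 bp apart, peaks not overlapping) and beyond the right end of Fth1 (79 bp apart); Slc40a1 and Lyve1 have isotype peaks only.

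A c-Maf-only region was defined as peaks from the 2 c-Maf antibody libraries that overlap by at least 1 bp with no overlapping peak of either isotype library. Isotype tags without a called peak were not counted, so the term does not mean that isotype signal was absent. Of the 9 genes, 2 had such a region within 50 kb, Slc11a1 and Fth1 (22.2%), against 3.17% of all protein-coding genes. Isotype-only regions, defined with the antibodies exchanged, were near 0 of the 9 genes, against 1.45% of all genes. No set test was made, because the genes were chosen with earlier results of these data known. The 2 regions differed widely in strength.

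Fth1 encodes the heavy chain of ferritin, the protein shell that stores iron, and its neighbourhood held the strongest peaks of the set. On chromosome 19, the c-Maf antibody library of number 3 had a peak from 10025617 to 10025831 with 9 tags at the summit (interval 4.12 to 17.1) over a local input level of 0.56. The library of number 4 had one from 10025615 to 10025833 with 10 tags (4.80 to 18.4) over 0.53. The 2 peaks thus shared 215 bp and nearly the same ends. The authors' fold enrichment, the ratio of pileup to local input with 1 added to both, was 6.24 in number 3 and 7.08 in number 4, and −log10 q was 2.39 and 3.39. By p-value the peaks stood in the top 0.892% of the list of number 3 and the top 0.375% of that of number 4. Both were wide, since 0.376% and 0.227% of the peaks in those lists were as long. Among the 491 c-Maf-only regions of the series it ranked 22 by mean rank of p, and it was 1 of 36 whose peaks passed a q-value of 0.05 in both libraries. Such a region lay within 50 kb of 0.302% of all genes.

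The region near Fth1 lies 40.5 kb beyond the gene's end, inside Rab3il1, a gene for an activator of Rab GTPases, and 7.4 kb from the nearest of 5 Rab3il1 start sites. Best1, Fads3 and Fads2 also lie within 50 kb of it, so position alone does not tie it to Fth1. The nearest isotype peak was 5.6 kb away, with 5 tags and a fold enrichment of 3.90 in number 4. A further c-Maf antibody peak of number 3, 22.0 kb beyond Fth1 and also inside Rab3il1, held 5 tags at a fold enrichment of 3.62 and had no partner in number 4. Fth1 itself, on chromosome 19 from 9980600 to 9985111, held no peak of any library.

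Slc11a1 encodes NRAMP1, a metal transporter of the phagosome membrane that withholds iron and manganese from engulfed microbes. It lies on chromosome 1 from 74375014 to 74386057, and its peaks sat closest to a start site of all members. The c-Maf antibody library of number 3 had peaks at 74375298 to 74375399 with 6 tags and at 74375477 to 74375618 with 7 tags. The library of number 4 had one peak there, at 74375486 to 74375545, with 5 tags. The second peak of number 3 and the peak of number 4 overlapped by 60 bp, with summits 23 bp apart. Counted from the listed start at 74375203, the summits lay 286 bp and 309 bp into the gene, and the other peak of number 3 began 95 bp into it. Exon and intron places were not used here.

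These Slc11a1 peaks were weak. Fold enrichment was 3.90 in number 3 and 2.97 in number 4, over a local input level of 1.00 in both, and −log10 q was 0.11 and 0.00. They ranked in the top 37.3% and the top 92.7% of their lists, and the region ranked 424 of the 491. The nearest isotype peak was 40.2 kb away, so no isotype peak lay in the gene. Within the gene span alone, Slc11a1 was the one member of 9 with a c-Maf-only region, against 0.946% of all genes, and 0 of 9 had an isotype-only region, against 0.48%. The region was not found among the 15568 strongest peaks of each list or at 50% reciprocal overlap.

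A second pair of c-Maf antibody peaks lay beyond the end of Slc11a1, inside Vil1, the gene of the microvillus protein villin. In number 3 it spanned 74419711 to 74419792, with 5 tags and a fold enrichment of 3.72. In number 4 it spanned 74419608 to 74419676, with 6 tags and a fold enrichment of 3.46. The peaks did not overlap, but their summits were 117 bp apart, so Slc11a1 had 2 c-Maf-only regions where summits within 200 bp counted as one region. The isotype library of number 3 also had 2 peaks inside Vil1, 29.7 kb and 29.9 kb beyond Slc11a1, with 5 and 6 tags and fold enrichments of 4.15 and 4.84. The tag intervals of these isotype peaks and of the c-Maf antibody pair in Vil1 overlap, but the peaks lie at different places.

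**Figure D2:**
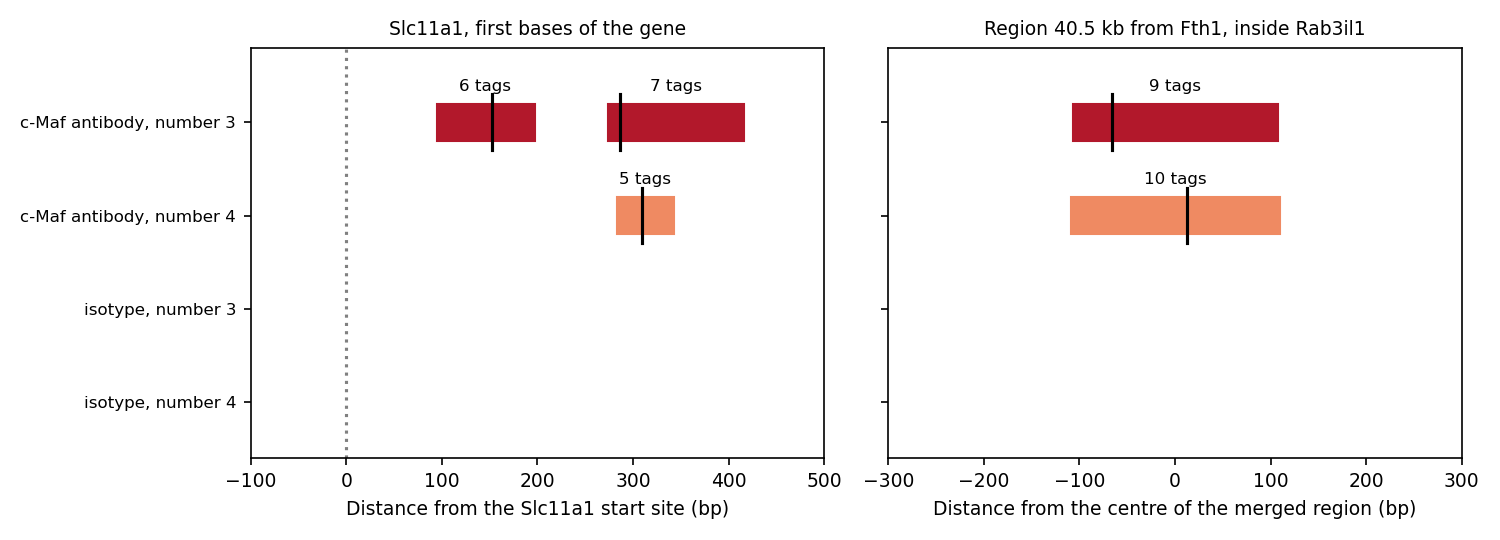
Peaks of each library as bars, with the summit as a black line and its tags above, in bp from the Slc11a1 start site (left, dotted line) and from the centre of the region near Fth1 (right). The c-Maf antibody peaks near Fth1 share nearly the same ends and hold 9 and 10 tags, the overlapping pair at Slc11a1 holds 7 and 5, and the isotype rows are empty in both ranges.

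Hmox1 encodes haem oxygenase 1, which opens the haem ring and frees its iron, and it lies on chromosome 8 from 75093618 to 75100593. No peak lay in the gene. With the c-Maf antibody, number 4 had a peak 22.2 kb away, inside the replication helicase gene Mcm5, with 6 tags at a fold enrichment of 4.60. The nearest peak of number 3 was 79.8 kb away. Isotype number 4 had a peak at 32.9 kb with 5 tags and a fold enrichment of 3.79, and that of number 3 had its nearest peak 54.3 kb away. Neither antibody was therefore represented by both of its libraries around Hmox1.

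Slc40a1 encodes ferroportin, the iron exporter of the cell surface, on chromosome 1 from 45908070 to 45926532. The c-Maf antibody libraries had no peak near it, and their closest peaks were 162.4 kb (number 3) and 141.5 kb (number 4) away. The isotype library of number 3 had 2 peaks at 16.5 kb and 18.4 kb, each with 4 tags, with fold enrichments of 3.46 and 3.45. That is the median peak size of that list.

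Cd163, on chromosome 6 from 124304636 to 124330529, encodes the scavenger receptor for haemoglobin bound to haptoglobin. A c-Maf antibody peak of number 3 lay 18.8 kb upstream, with 8 tags over a local input level of 2.00 and a fold enrichment of 2.92. The nearest peak of number 4 was 65.6 kb away. Inside the gene, isotype number 3 had a peak with 4 tags and a fold enrichment of 3.46. The single gene-body peak of this receptor was thus an isotype peak.

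F13a1 encodes the A chain of coagulation factor XIII, a transglutaminase that macrophages carry in the cell, and its span of 183.1 kb on chromosome 13, from 36867178 to 37050244, is the longest of the 9. Both c-Maf antibody libraries had a peak inside it, but at different places, 13.6 kb apart. The peak of number 3 was 85.3 kb from the gene's start, with 5 tags and a fold enrichment of 3.68. The peak of number 4 was 71.5 kb from it, with 9 tags over a local input level of 2.00 and a fold enrichment of 3.29. Isotype number 3 had a peak 19.4 kb from the start, with 4 tags and a fold enrichment of 3.46. The c-Maf antibody peaks did not form a shared region.

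Lyve1, on chromosome 7 from 110850607 to 110862953, encodes a receptor for the matrix sugar hyaluronan. It had no c-Maf antibody peak within 50 kb, with the nearest at 57.0 kb (number 3) and 70.1 kb (number 4). One isotype peak of number 4, 40.4 kb away inside Mrvi1, held 5 tags at a fold enrichment of 2.95. With Slc40a1 it was 1 of 2 members without any c-Maf antibody peak in the window.

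Folr2 encodes folate receptor beta and lies on chromosome 7 from 101839988 to 101857190. Its c-Maf antibody peaks came from number 3 alone, at 12.3 kb upstream inside its relative Folr1 and at 46.1 kb downstream inside Clpb, each with 5 tags, and with fold enrichments of 3.58 and 3.46. The nearest peak of number 4 was 131.0 kb away. An isotype peak of number 3, 34.2 kb upstream inside Anapc15, held 6 tags at a fold enrichment of 3.44. The tag intervals of these peaks, 1.62 to 11.7 for 5 tags and 2.20 to 13.1 for 6, overlap, but the peaks lie at different places.

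Apoe encodes apolipoprotein E, a lipid carrier that macrophages secrete, on chromosome 7 from 19696244 to 19701310. Of the c-Maf antibody peaks of number 3 near members, the one near Apoe had the highest fold enrichment after that near Fth1. It lay 28.5 kb downstream of Apoe, from 19667620 to 19667719, in number 3 only, with 8 tags (3.45 to 15.8) and a fold enrichment of 4.82, in the top 10.3% of its list. It was inside no gene, and Clptm1 was the nearest one. Its −log10 q was 0.85, short of a q-value of 0.05, and the nearest peak of number 4 was 160.4 kb away. Isotype number 3 had a peak of 3 tags inside Tomm40, 6.5 kb upstream of Apoe.

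**Figure D3:**
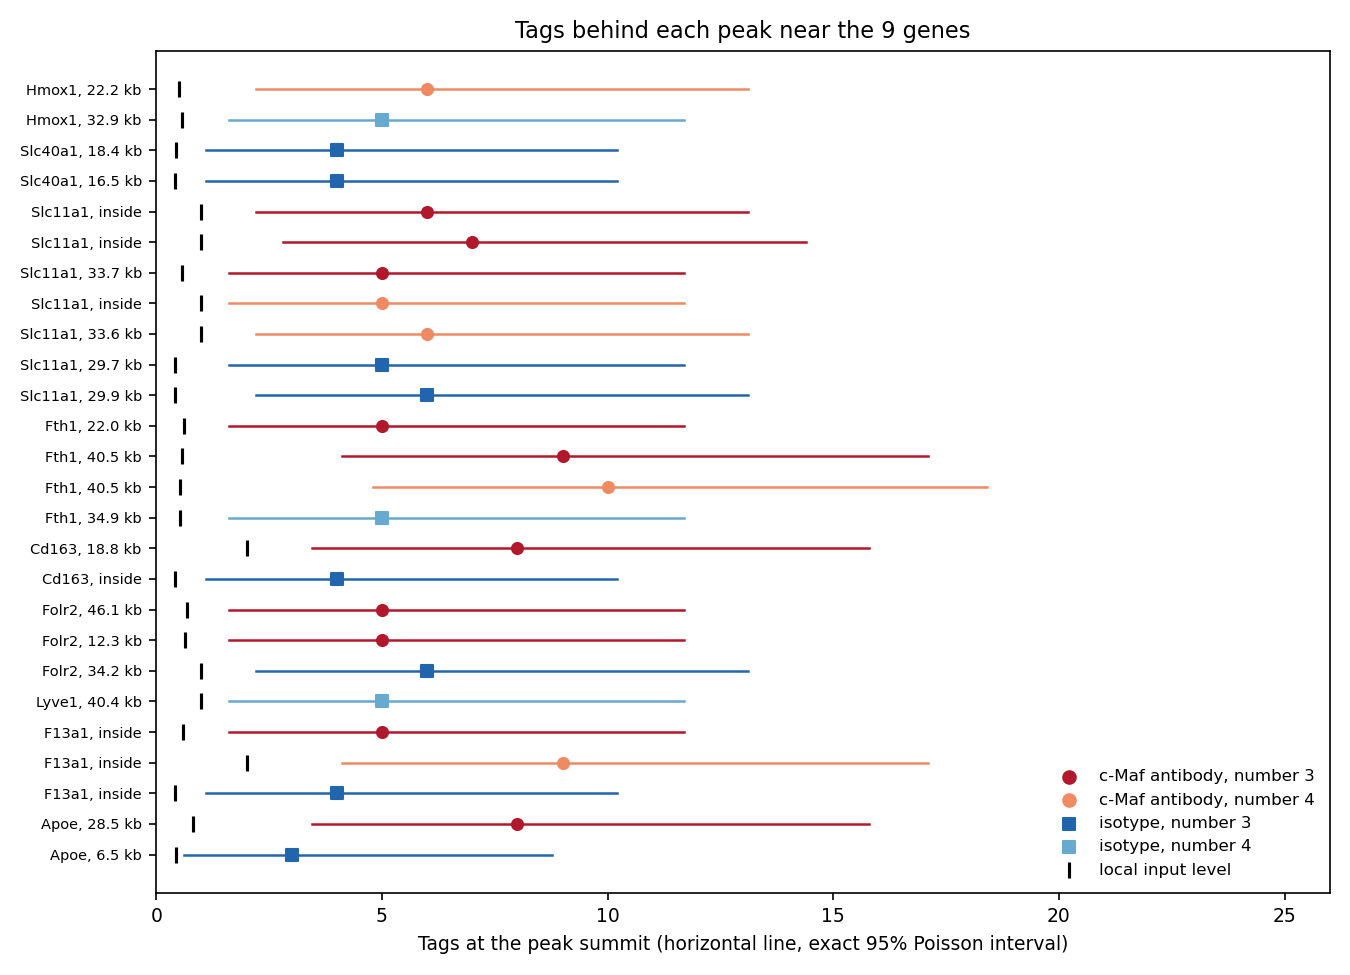
Tags at the summit of each of the 26 peaks, with exact 95% Poisson intervals as lines. A black tick gives the local input level, solved from the deposited fold enrichment and pileup. Rows are peaks, named by gene and by the distance from its span. The pair near Fth1, with 9 and 10 tags, is at the upper end. All 26 intervals overlap one another, since the highest lower bound is 4.80 and the lowest upper bound 8.77, which follows from the small counts. No c-Maf antibody peak here overlaps an isotype peak, so the intervals do not compare the antibodies at one place. Peaks enter only if they were called against the input.

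Within 50 kb, the share of members with a peak was in no library above that of all genes. The c-Maf antibody library of number 3 had a peak within 50 kb of 6 of the 9 genes (66.7%), against 66.7% of all protein-coding genes. Number 4 had one for 4 of 9 (44.4%), against 53.8%. Isotype number 3 had one for 6 of 9 (66.7%), against 85% of all genes, and isotype number 4 for 3 of 9 (33.3%), against 47.3%. Peaks of both c-Maf antibody libraries, overlapping or not, lay near 3 of 9 genes (33.3%), namely Slc11a1, Fth1 and F13a1, against 39.3%. Peaks of both isotype libraries lay near 0 of 9, against 42.5%. Within the gene spans, each c-Maf antibody library had a peak in Slc11a1 and F13a1, 2 of 9 (22.2%), against 23.1% of all genes in number 3 and 17.6% in number 4. Isotype number 3 had one in Cd163 and F13a1, 2 of 9, against 33.7%, and isotype number 4 in 0 of 9, against 15.3%.

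**Figure D4:**
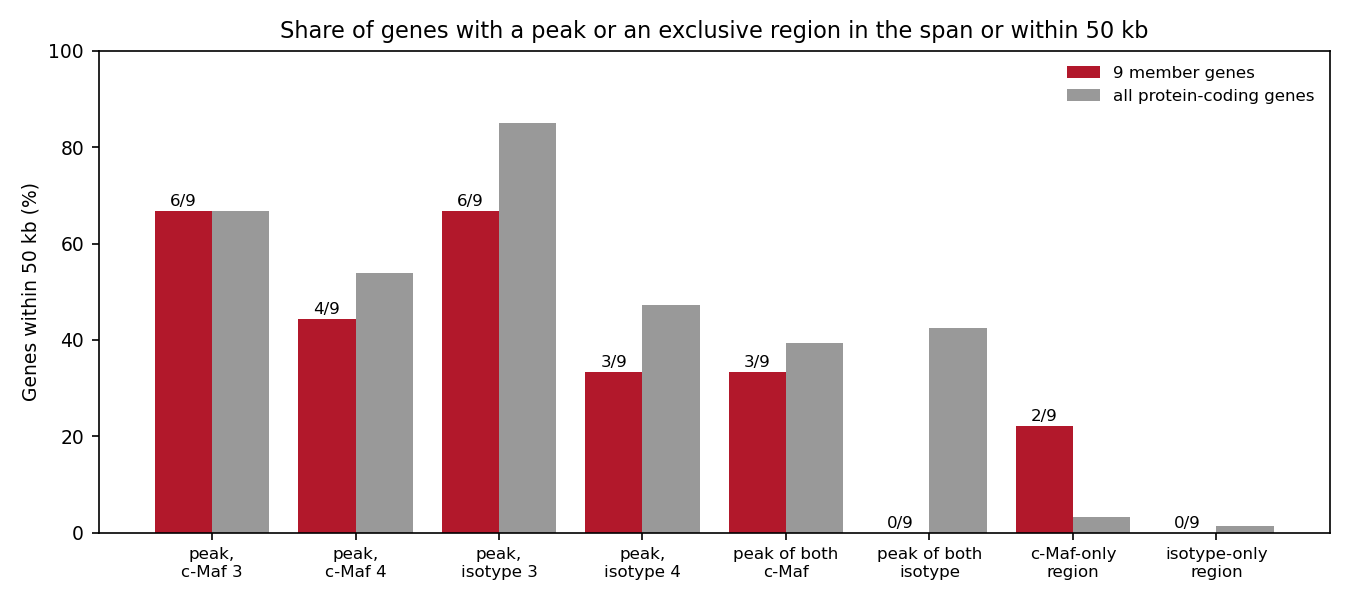
Share of genes, in percent, with a peak of each library, a peak of both libraries of an antibody, or an exclusive region in the span widened by 50 kb on both sides, for the 9 genes (red, with counts) and all protein-coding genes (grey). Among the 8 shares plotted, all for spans widened by 50 kb, the red bar is above the grey one for the c-Maf-only region alone, with 2 of 9 against 3.17%.

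Peak density near the members was also no higher than near genes in general. The 9 windows covered 1.185 Mb. They held 8.44 (number 3) and 4.22 (number 4) c-Maf antibody peaks per Mb, against 9.38 and 6.74 in the windows of all genes. For the isotype they held 6.75 and 2.53, against 22.1 and 5.86. Scaled to list length, the members' windows held 4.27 and 2.84 of every 10000 c-Maf antibody peaks and 1.36 and 1.93 of every 10000 isotype peaks. Both c-Maf antibody values were above both isotype values, a difference of 1.91 between the means (exact permutation test, two-sided, 2 libraries against 2, p = 0.333, the smallest this design allows). In lists cut to their 15568 strongest peaks, at 50 kb, the difference was smaller, 0.964 (exact permutation test, p = 0.333). With full lists, the separation was lost within 100 kb, with a difference of 1.08 (exact permutation test, p = 0.667). At 50 kb, within number 3 the difference was 2.91 and within number 4 it was 0.911. With 8 isotype peaks in number 3 and 3 in number 4, these rates rest on few peaks. The 50 kb windows of all genes held 15815 of 23434 (number 3) and 11364 of 17620 (number 4) c-Maf antibody peaks. For the isotype they held 37344 of 58732 and 9884 of 15568. In these shares too, both c-Maf antibody libraries were above both isotype libraries, so that order is not particular to the members.

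The distance of 50 kb set what was counted. The farthest peak inside it was that of Folr2 at 46.1 kb, and the nearest outside were isotype peaks 52.9 kb and 53.5 kb from Fth1 and 54.3 kb from Hmox1. Of the 26 peaks, 7 lay inside a member, 14 outside it but inside another gene, and 5 in no gene. For 10 of them the member was the gene that held the peak or the nearest gene.

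Other genes of iron and haem handling were examined as a list of 33, and 2 of them lay within 50 kb of a c-Maf-only region (6.06%, against 3.17% of all genes). Slc25a37 encodes mitoferrin 1, which brings iron into mitochondria, and had a region inside the gene on chromosome 14 at 69267350 to 69267417, with 7 tags in number 3 and 6 in number 4 and fold enrichments of 5.20 and 4.69. Alas1 encodes the first enzyme of haem synthesis. Its region lay 3.2 kb outside the gene on chromosome 9 at 106230093 to 106230217, with Tlr9 as the nearest gene. It was uneven, with 13 tags and a fold enrichment of 8.42 in number 3 and 5 tags and 3.74 in number 4. Ireb2, an iron sensor that controls ferritin and transferrin receptor mRNAs, had an isotype-only region 47.0 kb away, with 3 and 6 tags, and was 1 of 33 (3.03%, against 1.45%). The remaining genes, among them Ftl1, Tfrc, Slc48a1, Blvrb, Bach1, Nfe2l2 and Spic, had neither kind of region.

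In a list of 36 genes of tissue-resident macrophages, 7 lay within 50 kb of a c-Maf-only region (19.4%, against 3.17% of all genes), in 7 distinct regions. Csf1r, Mertk and the neighbouring C1qa, C1qb and C1qc, which share their regions, were known to have them in these data when the list was drawn up, so the share supports nothing. The other 2 were Nr1h3 and Lpl. Nr1h3 encodes the oxysterol receptor LXR alpha, and its region on chromosome 2 at 91206415 to 91206602 lay 3.6 kb outside it, inside the lysosomal phosphatase gene Acp2. It held 6 tags in number 3 and 5 in number 4, with fold enrichments of 4.55 and 4.02. Lpl encodes lipoprotein lipase, which frees fatty acids from circulating lipids. Its region was 45.0 kb away on chromosome 8 at 68951910 to 68952047, with 7 tags in each library and fold enrichments of 4.78 and 3.95, and Lpl was the one protein-coding gene within 50 kb of it. Siglec1, the gene of the sialic acid receptor CD169, had an isotype-only region 47.3 kb away with 6 tags in each library, 1 of 36 (2.78%, against 1.45%). None of the regions near either list passed a q-value of 0.05 in both libraries.

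Genes were also compared by which of the 4 libraries had a peak within 50 kb and whether a c-Maf-only region was among them. Slc11a1 had peaks in the c-Maf antibody lists of both numbers and in isotype number 3, a pattern of 260 genes (1.19%), and from the lists Slc25a37 and Nr1h3 had it. Fth1 had peaks in the c-Maf antibody lists of both numbers and in isotype number 4, a pattern of 38 genes (0.174%), and from the lists Lpl had it. Cd163, Folr2 and Apoe shared one pattern, peaks of the number 3 libraries of both antibodies alone, with 12.6% of all genes. This likeness is over 4 libraries and describes peak presence only.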

How the data were processed

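Peaks were called by the authors for each library separately with MACS 2.1.1.20160309 at a p-value cut-off of 0.01, each list against the one input library, 1 tag kept per position and the human effective genome size, per the file headers. The tools MACS2, MACS 1.4.2 and FastQC and the mm10 build are named in the submitters' processing notes. Which aligner was used is not given in these sources. Deposited values were the pileup signal at the summit, the fold enrichment (ratio over local input), and −log10 of p and q, per the file headers. They are the authors' scores, were ranked only within one list, and stand side by side across lists as descriptions only. A Poisson p recomputed with 1 added to both parts of the ratio matched the deposited −log10 p within 0.05 for at least 99.99% of peaks. The local input level was solved from the deposited fold enrichment and pileup, and was not counted from input reads. It was the same, 0.42, at isotype number 3 peaks near Slc11a1, Cd163 and F13a1. Whether that value is a floor of the caller, and not local to each peak, was not tested.

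Peaks overlapping by at least 1 bp were merged, and gene spans came from RefSeq GRCm38.p6, with exon positions not used. Shares were read against all protein-coding genes. Named are the 9 members with all their peaks, and list genes with an exclusive region. Members and gene lists were chosen with earlier results of these data known. Merging and window counts were tested on simulated peaks. Python 3.11.15, pandas 2.3.3 and scipy 1.17.1 were used. With 2 libraries per antibody, the permutation p-values reflect only how these libraries are ordered and measure no spread between them. Differences between the libraries may be technical. Alternatives changed the window, the p or q threshold, list length, the overlap rule and the libraries.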

Additional observations from a re-analysis of the deposited data

How the results depend on the processing

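The count of 2 members with a c-Maf-only region fell to 1, Slc11a1, in the gene span alone and within 5 kb or 10 kb, since the region near Fth1 is farther away. It fell to 1, Fth1, at p-values of 1e-05, at q-values of 0.05, in equal lists of 15568 peaks and at 50% reciprocal overlap. It was 2 within 100 kb and with summits within 200 bp. With 1 library left out it ranged from 2 to 6, with 4 without c-Maf antibody number 3 and 6 without number 4, where a lone list has no replicate filter. The isotype-only count of 0 held under every alternative that kept both isotype libraries, and went from 0 to 6 when 1 library was omitted, with 3 without isotype number 3 and 6 without number 4. Members with peaks of both c-Maf antibody libraries numbered 6 within 100 kb, 1 at p-values of 1e-05 and 1 at q-values of 0.05, against 3, and 3 to 6 with 1 library left out. Those with peaks of both isotype libraries numbered 4 within 100 kb, against 0, and 0 to 6 with 1 library left out. The difference in members' peaks per 10000 was positive under every alternative, though at 100 kb (1.08, exact permutation p = 0.667) the libraries of the 2 antibodies no longer separated, and ran from 0.952 (10 kb) to 16.9 (q-values of 0.05, where it rests on 2 peaks), or from 1.19 to 2.62 with 1 library left out. All alternatives draw on the same libraries, and members were chosen with earlier results known, so the shared sign adds no support. With the number as a replicate block the difference was 1.91 (exact sign-flip permutation, p = 0.5, the smallest 2 pairs allow). No label says that a number marks a shared animal or day, and with 2 pairs the data cannot show one. Small tag counts limit all of this: the median peak of a list held 4 to 6 tags.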
